A study of Mus musculus with 24 samples.

Results

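The 204 DNA transposon subfamilies in mouse embryonic stem (ES) cells were followed by methylated RNA immunoprecipitation and sequencing (MeRIP-seq), in which RNA fragments that carry N6-methyladenosine (m6A) are pulled down with an antibody (IP) and compared with the RNA that went in (input). Members were all rows of the read count table whose RepeatMasker class is exactly DNA, which gave 204 of 1153 repeat subfamilies and 204 of 49090 genes and repeats. A further 21 subfamilies of the uncertain class "DNA?" were left out. Of the 204, 202 had at least 1 read and 194 passed the filter on low counts, and every test was fitted on all 22700 genes and repeats that passed.

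DNA transposons move by cut and paste, with a transposase enzyme that binds the ends of the element and inserts it elsewhere. In the mouse genome they are old, inactive copies, many of them short elements that never coded for a transposase, and most lie within introns and between genes. The hAT and TcMar (Tc1/mariner) superfamilies hold most of them, and several host genes, such as Cenpb and Pogz, descend from transposases. Mettl3 and Mettl14 form the enzyme that deposits most m6A on messenger RNA, with Mettl3 as the catalytic subunit.

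The 4 cell lines were WT26 (wild type), a Mettl14 KO clone derived from WT26, RBC (carrying Rosa26 BirA-V5 and Cre-ERT2) and a Mettl3 KO clone derived from RBC and carrying the same alleles. Each knockout was therefore 1 clone, compared with its own parental line, and the ES cells of the RNA-seq samples were labelled 129/Sv x C57Bl6. Each line had 2 input and 2 IP libraries of nuclear RNA, 16 in all, with the material of several immunoprecipitations and of their inputs combined for each replicate, and 2 RNA-seq libraries, 8 in all. The methods call these biological replicates, but the labels do not say that they came from separate cultures, so p-values measure the spread between these libraries, which may in part be technical.

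Total counts were between 9394163 and 28441282 per MeRIP library, and the median subfamily had 65.5 to 401 reads. The summed normalized count of 8 ES cell markers in input was 17727 and 16598 for WT26 against 12521 and 13669 for Mettl14 KO, and 15157 and 15402 for RBC against 10738 and 9913 for Mettl3 KO, so it was lower in both knockouts without overlap. Klf4 overlapped between RBC (1094 and 1679) and Mettl3 KO (1478 and 1437), and Zfp42 between WT26 (3232 and 3098) and Mettl14 KO (3139 and 2361). All other marker comparisons were lower in the knockout without overlap. Tdgf1 fell most in Mettl3 KO, with 2120 and 1492 against 4836 and 4218 in RBC. The part of these marker differences in the comparisons of input and IP was not tested. Across the 8 inputs the sums were 51 to 135 for primitive endoderm, 179 to 275 for trophoblast, 19 to 108 for fibroblast, 8 to 89 for two-cell-like and 554 to 1040 for neural markers. Normalized Mettl3 counts in RNA-seq were 928 and 979 for RBC against 880 and 821 for Mettl3 KO, and Mettl14 counts were 401 and 358 for WT26 against 296 and 316 for Mettl14 KO, so transcripts of both targeted genes were still counted.

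The hAT superfamily held 120 of the 204 subfamilies and 72.4% of the DNA transposon counts in input. TcMar held 61 subfamilies and 26.5% of the counts, and the other 23 subfamilies (MuDR, MULE-MuDR, PiggyBac and subfamilies with no family name) held 1.15%. Within hAT, the Charlie family alone gave 67.7% of the counts, and within TcMar the Tigger family gave 24.2%. The counts were concentrated in few subfamilies. URR1A and URR1B, a pair of short hAT-Charlie elements of rodents, together took 23.3% of them, and the 10 most abundant subfamilies took 55.4%.

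DNA transposons made up less of the IP than of the input in every line. Their share of all counted reads was 1.53% and 1.40% in the WT26 inputs and 0.809% and 0.408% in the WT26 IPs. In Mettl14 KO it was 1.53% and 1.66% in input and 1.02% and 0.501% in IP. In RBC it was 1.28% and 1.75% in input and 0.918% and 0.521% in IP. The 2 groups did not overlap in these 3 lines, and the second IP library was the lower one each time. In Mettl3 KO the inputs held 1.71% and 1.85% and the IPs 1.41% and 0.953%, again without overlap, and both of these IP shares were above the shares of the other lines' IPs with the same replicate number. No test was run on these shares, since 2 against 2 libraries cannot go below 0.333 in a two-sided exact permutation test.

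**Figure D1:**
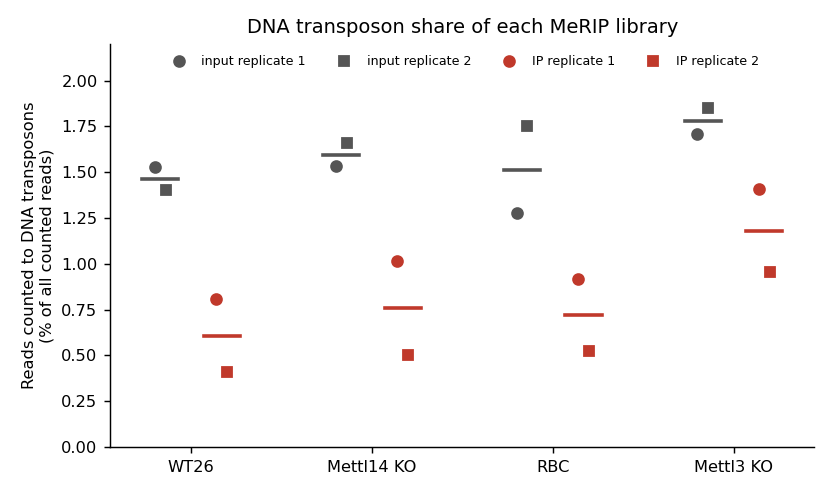
Share of counted reads (percent, y axis) that fell on the 204 DNA transposon subfamilies in each input (grey) and IP (red) library of the 4 lines; circles are replicate 1, squares replicate 2 and bars the mean of 2. Every IP lies below both inputs of its line, from 0.408% in WT26 to 1.41% in Mettl3 KO.

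The first comparison asked which subfamilies were enriched or depleted by the m6A antibody in each line. Most DNA transposons were depleted in the IP. The median log2 IP over input of the 194 subfamilies was -1.68 in WT26, -1.49 in Mettl14 KO, -1.50 in RBC and -0.95 in Mettl3 KO, against 0.04, 0.03, 0.04 and -0.00 over all features. The 902 tested repeats outside the DNA class were depleted too, with medians of -1.19, -1.02, -1.04 and -0.61. With the adjusted p held to 0.05 or less and the log2 change beyond 1, 163 subfamilies were lower in the IP of WT26 (13.4% of all features were), 149 in Mettl14 KO (9.79%), 154 in RBC (10.9%) and 5 in Mettl3 KO (1.83%). No subfamily was called higher in the IP of any line, where 14.5%, 11.9%, 13.3% and 2.51% of all features were, and none was higher at an unadjusted p under 0.05 either. These are tests by edgeR's quasi-likelihood method with Benjamini-Hochberg adjustment over all 22700 features.

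How many subfamilies were called rested on single libraries and on the scaling. Without the second IP library or the second input library, few or none of the calls remained in any line. Such a run leaves 1 library in a group, and the share of all features called in it is not given here. The fall is therefore not read as particular to DNA transposons. The medians without the second IP library were -1.33 in WT26, -1.12 in Mettl14 KO, -1.13 in RBC and -0.67 in Mettl3 KO, with 193, 193, 190 and 187 of 194 subfamilies below 0. Without the first IP library slightly more subfamilies were called in each line, and without the first input library fewer were. Scaling on repeats outside the DNA class, which moved the median of all features up to 1.32, 1.14, 1.20 and 0.66, left 7, 7, 7 and 0 subfamilies lower, with medians of -0.52, -0.49, -0.46 and -0.33. The share of all features called lower on that scale is not given here.

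The depletion can also be read in the order of the libraries, though only under the main scaling, on which these counts rest too. Both IPs lay below both inputs, in normalized counts, for 189 of 194 subfamilies in WT26, 191 in Mettl14 KO, 186 in RBC and 183 in Mettl3 KO, where 35.1%, 33.7%, 34.7% and 33.6% of all features did so. Taking each replicate alone, the median log2 IP over input was -1.30 (replicate 1) and -2.24 (replicate 2) in WT26. It was -0.98 and -2.15 for Mettl14 KO, -0.99 and -2.21 for RBC, and -0.63 and -1.33 for Mettl3 KO. In WT26, Mettl14 KO and RBC the replicates lay further apart than the fitted medians of any pair of lines.

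Across families, hAT and TcMar sat close together. Summed over all members, the log2 IP over input of hAT was -1.72 in WT26, -1.53 in Mettl14 KO, -1.52 in RBC and -0.97 in Mettl3 KO, and that of TcMar was -1.67, -1.47, -1.47 and -0.93. Of 118 tested hAT subfamilies 98 were lower in WT26 and 96 in RBC, and of 57 tested TcMar subfamilies 52 and 48 were. hAT-Tip100 stood nearer to 0 than the other large families, with sums of -1.35, -1.31, -1.24 and -0.87 and with 21 of 31 subfamilies lower in WT26 and in RBC, whereas hAT-Charlie had 62 of 71 lower in both lines. The difference between these families was not tested.

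**Figure D2:**
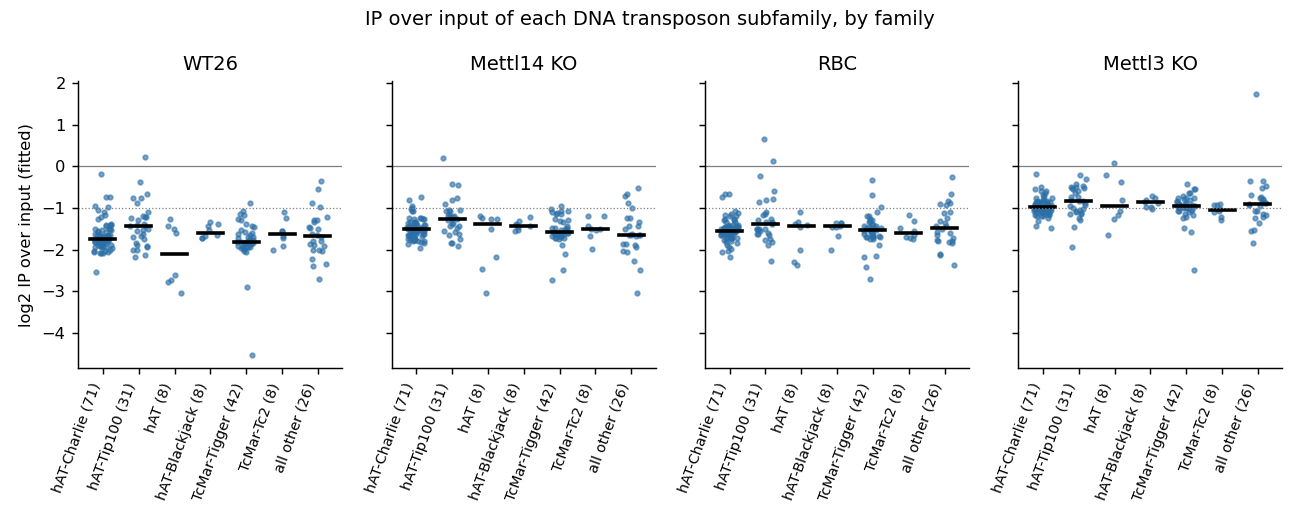
Fitted log2 IP over input (y axis) of each of the 194 tested subfamilies, 1 point each, by family with the number of subfamilies in brackets, in the 4 lines; black bars are medians, the solid line is 0 and the dotted line the limit of -1. The points lie mostly between -2 and -1 in WT26, Mettl14 KO and RBC and around -0.95 in Mettl3 KO, and the few points above 0 have adjusted p-values of 0.20 or more.

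Of the 6 repeat families summed for comparison (L2, MIR, CR1, L1, Alu and ERVK), the SINE family MIR was the closest to DNA transposons in these values. Its summed log2 IP over input was -1.63 in WT26, -1.53 in Mettl14 KO, -1.54 in RBC and -1.02 in Mettl3 KO, against -1.71, -1.51, -1.50 and -0.96 for the DNA class. Alu was at -1.38, -1.15, -1.23 and -0.67 and CR1 at -1.36, -1.28, -0.82 and -0.75. L2, another old family, was at -1.05, -0.85, -0.91 and -0.35, ERVK at -0.97, -0.85, -0.87 and -0.46, and L1 at 0.57, 0.08, 0.10 and -0.13. The major satellite GSAT_MM was on the other side of 0, at 1.82, 0.34, 1.41 and 0.26.

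URR1A was the most abundant member. Its normalized counts were 32279 and 33515 in the WT26 inputs and 12838 and 6319 in the IPs, 33909 and 39840 against 16907 and 8603 in Mettl14 KO, 33665 and 38622 against 16678 and 7484 in RBC, and 39136 and 39331 against 25722 and 15161 in Mettl3 KO. All IPs lay below all inputs. The fitted log2 IP over input was -1.78 ± 0.45 (SE, n = 2 and 2; adjusted p = 0.0123 by edgeR) in WT26 and -0.94 ± 0.44 (adjusted p = 0.199 by edgeR) in Mettl3 KO. URR1B, its close relative, followed it with -1.68 in WT26, -1.49 in Mettl14 KO, -1.49 in RBC and -0.90 in Mettl3 KO.

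MER2, the most abundant Tigger element, had 16009 and 18240 normalized counts in the WT26 inputs and 6167 and 3393 in the IPs. In Mettl3 KO it had 19766 and 20768 in input and 12135 and 8306 in IP. The groups were separate in both lines, with fitted log2 values of -1.84 ± 0.37 and -0.99 ± 0.36 (SE). The remaining 7 of the 10 most abundant members, RCHARR1, MER20, MER5A, Charlie1a, MER58A and MER5B of hAT-Charlie and Tigger7 of TcMar-Tigger, lay between -2.07 (Charlie1a) and -1.50 (MER5A) in WT26. MER5A had the smallest gap between RBC and Mettl3 KO among these 10: it had 5954 and 5996 normalized counts in the RBC IPs, so its second RBC IP was not lower than the first, and its log2 IP over input was -1.07 ± 0.27 in RBC and -1.01 ± 0.27 in Mettl3 KO (SE).

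**Figure D3:**
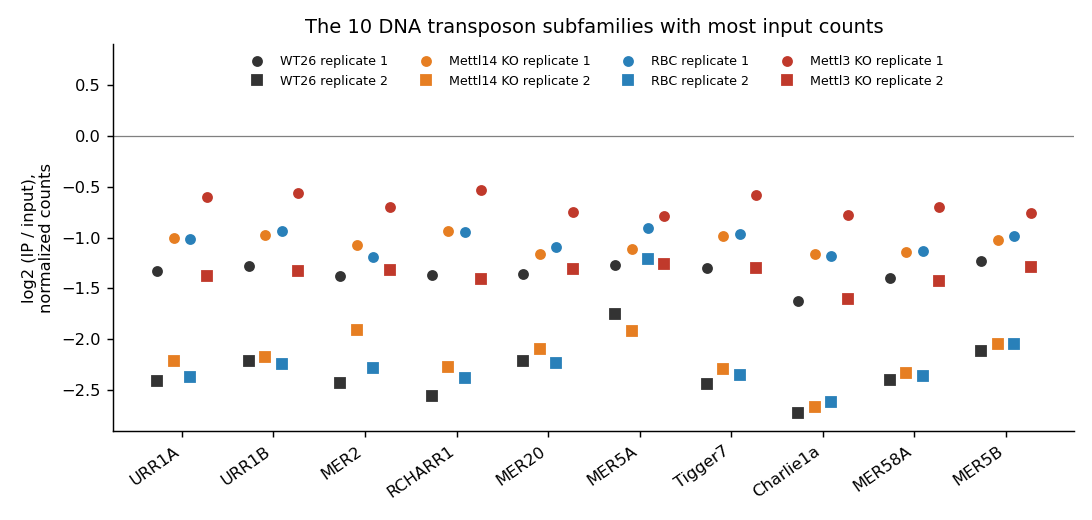
log2 of IP over input in normalized counts (y axis) for the 10 subfamilies with most input counts, from URR1A on the left to MER5B, for each replicate of the 4 lines (circles replicate 1, squares replicate 2). All points lie below 0, and replicate 2 lies below replicate 1 in every subfamily and line shown.

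Subfamilies with more counts gave less scattered values. The SD of the log2 IP over input among subfamilies was 1.07 in WT26 for the 20 with a mean input under 50 normalized counts, 0.46 for the 90 between 50 and 500, 0.28 for the 71 between 500 and 5000, and 0.15 for the 13 at 5000 and over. The medians of these 4 bins differed little, at -1.67, -1.60, -1.74 and -1.78. Over the 194 subfamilies, the values of WT26 and RBC had a Pearson r of 0.68 and a Spearman rho of 0.66, which describes subfamilies that share libraries and depth and is not a test.

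The lowest mean of WT26 and RBC, among members with at least 50 normalized counts, was that of Tigger1a_Art, a Tigger element. It had 84.9 and 131.7 normalized counts in the WT26 inputs and 17.5 and 10.8 in the IPs, and 123.7 and 136.3 against 35.2 and 11.1 in RBC. Its log2 IP over input was -2.89 ± 0.59 in WT26 and -2.42 ± 0.56 in RBC (SE). hAT-N1_Mam (-2.61 and -2.30) and Charlie17a (-2.53 and -2.16) came next. In the Mettl14 KO IP, Tigger12A, Eulor9A and Kanga1a were also among the 5 called subfamilies with the largest drop, at -2.10, -2.03 and -1.99.

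At the other end stood 3 hAT-Tip100 members. FordPrefect had 256.9 and 216.5 normalized counts in the WT26 inputs and 222.8 and 139.4 in the IPs, and 242.8 and 164.1 against 252.9 and 191.1 in RBC. The groups overlapped in RBC, and its log2 IP over input of 0.13 ± 0.29 there (SE; adjusted p = 0.761 by edgeR) was the only value above 0 in a member with at least 50 counts, in any of the 4 lines. It was -0.73 ± 0.30 in Mettl3 KO, below RBC, whereas most subfamilies were above. MamTip1 was at -0.66 in WT26 and -0.23 in RBC, and MER45B at -0.75 and -0.58. None of the 3 was called in RBC.

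In Mettl3 KO the 5 called members were MamTip3, MamTip2 and Arthur1B of hAT-Tip100, MER81 of hAT-Blackjack and MER5A. MamTip3 had 198.0 and 211.9 normalized counts in the inputs and 84.0 and 65.6 in the IPs, a log2 change of -1.45 ± 0.33 (SE; adjusted p = 0.0294 by edgeR). The other 4 lay between -1.09 and -1.01. All 5 were also called in WT26, Mettl14 KO and RBC.

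The second comparison asked whether the IP over input of DNA transposons differed between each knockout and its parental line. The median log2 difference was 0.18 for Mettl14 KO minus WT26 and 0.59 for Mettl3 KO minus RBC, against 0.02 and 0.01 over all features, and 152 and 182 of the 194 subfamilies were above 0. Repeats outside the DNA class had medians of 0.16 and 0.44. These medians rested on single libraries and on the scaling. For Mettl14 KO the median was -0.17 without the second WT26 IP and -0.36 without the first Mettl14 KO IP, with 148 and 167 subfamilies below 0, but 0.71 without the first WT26 IP, 0.59 without the second Mettl14 KO IP, 0.32 without the second Mettl14 KO input and 0.075 without the first. For Mettl3 KO it stayed above 0, from 0.17 without the second RBC IP and 0.20 without the first Mettl3 KO IP to 1.19 without the first RBC IP. Scaled on repeats outside the DNA class, the medians were 0.0027 for Mettl14 KO, with 100 subfamilies above 0 and 94 below, and 0.16 for Mettl3 KO, with 138 above and 56 below, where the medians of all features moved to -0.15 and -0.48. No subfamily passed an adjusted p of 0.05 by edgeR in either comparison, and neither did any other of the 22700 features (0% called in both directions). At an unadjusted p under 0.05, 1 subfamily was higher in Mettl14 KO (FordPrefect_a) and 2 in Mettl3 KO (MER94B and Charlie1b_Mars), all 3 with fewer than 50 normalized counts, and none was lower; DESeq2 called none.

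**Figure D4:**
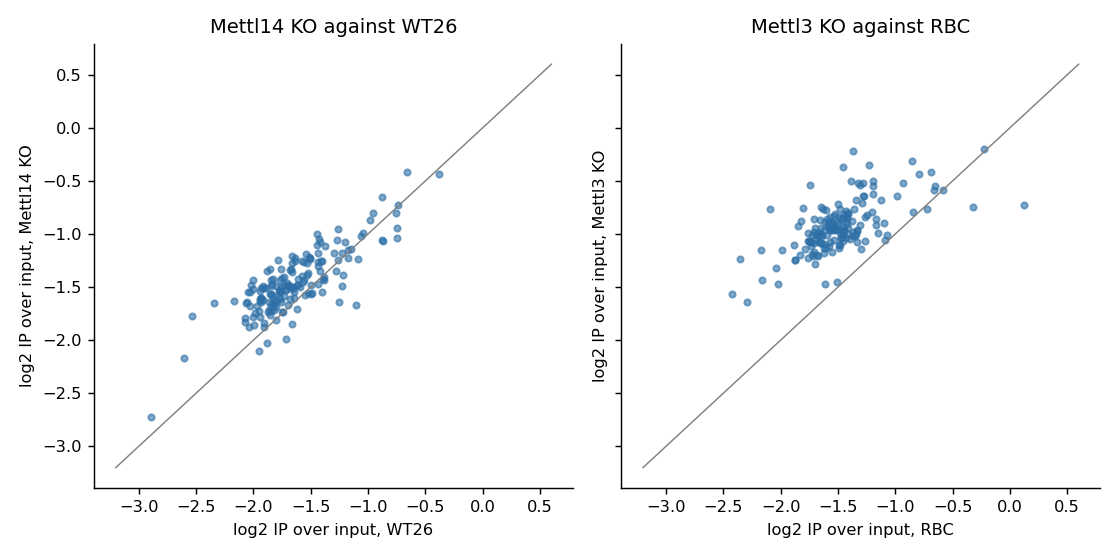
Fitted log2 IP over input of the 165 subfamilies with at least 50 normalized counts, 1 point each, in WT26 (x) and Mettl14 KO (y) on the left and in RBC (x) and Mettl3 KO (y) on the right; the grey line is equality. On the right nearly all points lie above the line, with a median difference over all 194 subfamilies of 0.59, and on the left they straddle it more closely, with 0.18, and no single difference passed the test.

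Summed over the class, the difference was 0.54 ± 0.82 (SD from the 2 replicates of each group) for Mettl3 KO and 0.19 ± 0.90 for Mettl14 KO. Both were smaller than this SD, which includes the distance between the first and second libraries seen in every line. Between libraries of one number, the median difference was 0.35 and 0.89 for Mettl3 KO and 0.31 and 0.053 for Mettl14 KO. In Mettl3 KO 168 of 194 subfamilies were higher than in RBC for both numbers, where 7953 of all 22700 features were, and in Mettl14 KO 89 were higher than in WT26, where 6060 of all features were. Fewer features were called in either direction in Mettl3 KO: 569 were higher in its IP against 3030 in RBC, and 415 lower against 2470. GSAT_MM was at 0.26 in Mettl3 KO and at 1.41 in RBC, a difference of -1.15 ± 2.26 (SD). In Mettl14 KO it was at 0.34 and in WT26 at 1.82, a difference of -1.48 ± 1.53. Whether these values relate to the differences of DNA transposons was not tested.

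The third comparison asked whether the amount of DNA transposon RNA in input differed between lines. In bulk RNA, fewer cells of a kind and less RNA per cell cannot be told apart. No subfamily was called in any of 3 comparisons by edgeR (in all features 0.123% were higher and 0.273% lower in Mettl14 KO, 0.181% and 0.573% in Mettl3 KO, and 0.304% and 0.278% in RBC against WT26), and at an unadjusted p under 0.05 only 1 subfamily was lower, in Mettl14 KO. The median log2 difference was 0.16 for Mettl14 KO, 0.12 for Mettl3 KO and 0.15 for RBC against WT26, against 0.02, 0.01 and 0.00 over all features. Leaving out 1 library moved these medians: for Mettl14 KO from 0.037 without its second input to 0.27 without its first, for Mettl3 KO from 0.0062 without the first RBC input to 0.26 without the second, and for RBC against WT26 from 0.033 without the second RBC input to 0.28 without the first. The 2 inputs of each line did not overlap and were higher in Mettl14 KO for 75 of 194 subfamilies and lower for 8, where 24.8% and 24.4% of all features did so. The same counts were 61 and 10 in Mettl3 KO (28.3% and 27.6%) and 80 and 5 for RBC against WT26 (23.6% and 21.9%).

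Over the 194 subfamilies the input differences lay between -1.09 and 1.46 for Mettl14 KO and between -0.58 and 1.39 for Mettl3 KO, and the ends were members with means under 50 normalized counts (Eulor8, Ricksha_a and Ricksha_c). Among members with at least 50, MER47A was the highest in both. MER47A, a Tigger element, had 133.6 and 140.8 normalized counts in the WT26 inputs against 179.4 and 239.9 for Mettl14 KO. In the RBC inputs it had 149.5 and 154.0, against 236.2 and 213.6 for Mettl3 KO. Both knockouts lay above their parental lines without overlap, but the log2 differences of 0.61 ± 0.60 and 0.57 ± 0.60 (SE) did not pass the test. Charlie21a and MER135 were next in Mettl14 KO (0.58 and 0.54), and Arthur1A and MamTip3 in Mettl3 KO (0.57 and 0.55). MER97b was the lowest of the members with at least 50 counts in both, at -0.42 and -0.48, with 66.4 and 134.7 in Mettl14 KO overlapping 121.0 and 142.3 in WT26. MamTip1 and MER91B followed in Mettl14 KO (-0.32 and -0.25), and MER45R and MER45C in Mettl3 KO (-0.42 and -0.35).

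Host genes related to DNA transposases or their binding domains were listed, 36 in all, of which 34 were in the table and 31 were tested in MeRIP-seq. They need not descend from the families followed here. In the IP 19 were higher in WT26, 16 in Mettl14 KO, 17 in RBC and 3 in Mettl3 KO (14.5%, 11.9%, 13.3% and 2.51% of all features were), and none was lower. Their median log2 IP over input was 1.20, 1.29, 1.35 and 0.63. Cenpb, whose protein binds centromeric satellite DNA and derives from a pogo-like transposase, had 306.4 and 366.4 normalized counts in the WT26 inputs and 910.5 and 1954.8 in the IPs, a log2 change of 2.09 ± 0.46 (SE). Jrkl, of the same group, was higher in the IPs of all 4 lines, from 2.15 in WT26 to 2.72 in RBC, as were Thap7 and Thap11, whose THAP domain resembles that of P element transposase. Tigd3 and Jrk in WT26 (2.16 and 1.95), Tigd5 in Mettl14 KO (1.83) and Tigd2 and Thap12 in RBC (2.04 and 2.02) were the others among the largest 5 per line. Cenpb overlaps Spef1 on the same strand, and how reads in the overlap were counted is not given in the sources used here.

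In RNA-seq, 29 of these genes were tested. In Mettl14 KO 4 were higher and 8 lower (25.5% and 27.0% of all genes were), and in Mettl3 KO 6 were higher and 4 lower (25.3% and 28.1%), so their shares were near or below the background. In RBC against WT26, 4 were higher and 5 lower (19.6% and 19.2%). Jrkl was lower in both knockouts: it had 142.9 and 137.4 normalized counts in WT26 against 96.1 and 106.2 for Mettl14 KO, and 124.2 and 107.5 in RBC against 56.5 and 63.5 for Mettl3 KO. These groups did not overlap, and the log2 changes were -0.47 ± 0.14 and -0.95 ± 0.16 (SE). Jrkl lies on chromosome 9 from 13242607 to 13245829 (GRCm38, minus strand).

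Pogk, a gene with a pogo-type transposase domain, and Zmym5, of the MYM-type zinc finger genes, were called in opposite directions in the knockouts. Pogk had 40.7 and 35.4 normalized counts in WT26 against 97.1 and 107.2 for Mettl14 KO. It had 132.2 and 155.8 in RBC against 113.9 and 107.8 for Mettl3 KO. WT26 was the line that stood apart, and RBC exceeded it by 1.91 ± 0.17 and Mettl14 KO by 1.42 ± 0.18 (log2, SE). Pogk overlaps Tada1 on the other strand, on chromosome 1 from 166384622 to 166409863, and whether the counting used strand is not given in the sources used here. Tigd5, Naif1, Tigd2 and Zmym4 were also lower and Thap1 and Zmym3 higher in Mettl14 KO. Zmym6 was lower and Zbed4, Thap4, Harbi1, Zmym3 and Jrk were higher in Mettl3 KO. Relative to WT26, RBC had more Zmym5, Jrk and Zmym2 and less Tigd2, Harbi1, Naif1, Zmym6 and Zmym3.

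**Figure D5:**
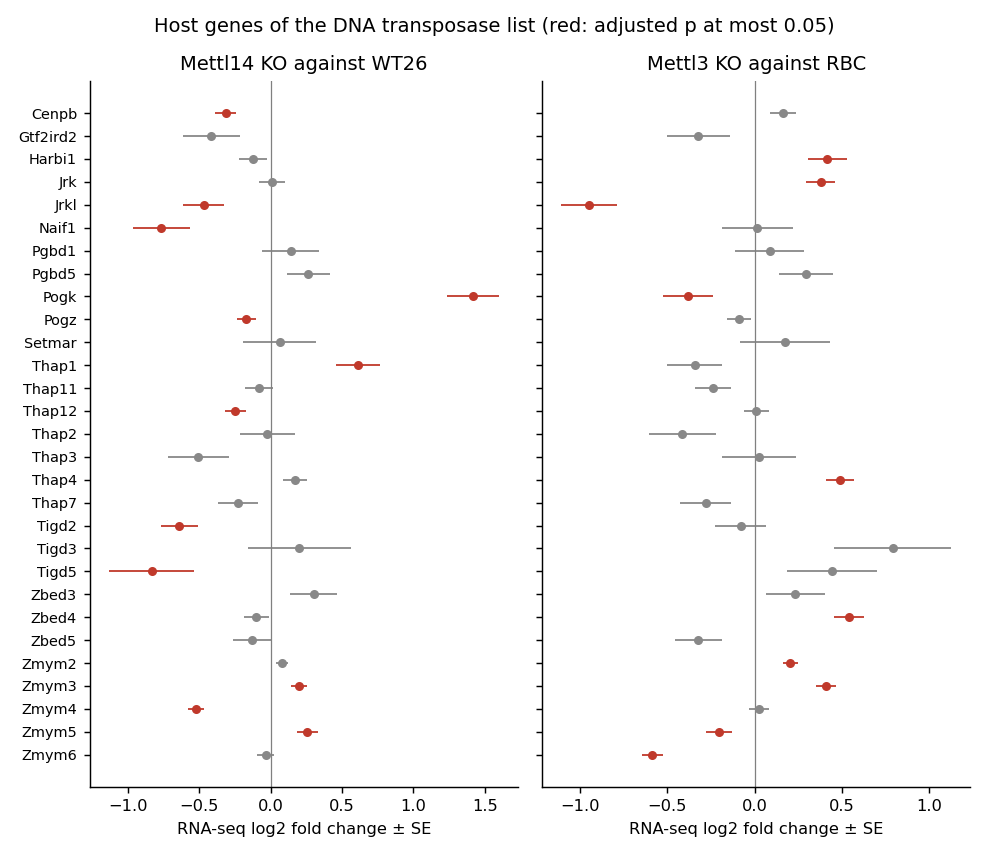
RNA-seq log2 fold change with SE (x axis) of the 29 tested host genes of the transposase list, 1 row each, in Mettl14 KO against WT26 (left) and Mettl3 KO against RBC (right); red marks an adjusted p of at most 0.05. The largest change is Pogk at 1.42 in Mettl14 KO, and Jrkl is negative in both panels.

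Of the 204 subfamilies, 10 were not tested. MamRep137 and Tigger1a_Mars had no read in any library, and the other 8 had between 1 (Ricksha_b) and 60 (nhAT5a_ML) reads over all 16 libraries. The lowest that were tested were Ricksha_c, MER47C and Charlie1b_Mars, with means of 4.35, 5.63 and 7.23 normalized counts. Over the 4 lines, MER47C held the lowest log2 IP over input, -4.53 in WT26. Ricksha_c held the highest, 1.74 in Mettl3 KO (adjusted p = 0.25 by edgeR).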

How the data were processed

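Per the authors' methods, adapters were removed with cutadapt 1.8.1 and alignment to GRCm38 used STAR 2.6.0c with multi-mapping reads retained. The authors counted genes and RepeatMasker repeats in TEtranscripts. The deposited values are raw counts, summed over all genomic copies of a subfamily, so a read shared by related subfamilies is divided by an estimate, and reads of a copy inside an intron count to the subfamily. RNA-seq genes are deposited as counts; their counting tool is not given in the sources used here. Strand use in counting is likewise not given. Of the gene rows, 47224 of 47937 matched a symbol.

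Counts were scaled by DESeq2 size factors and tested with edgeR's quasi-likelihood test, one term per line and assay, after filterByExpr, with Benjamini-Hochberg adjustment over all features; SE is the log2 change over the root of F. Calls of IP over input needed an adjusted p no higher than 0.05 and a log2 change beyond 1, the others at the adjusted p alone. Members named were the 10 most abundant, the 3 highest and lowest IP over input in the control lines, the called members (at most 5 per direction) and the 3 highest and lowest input changes, all but the first whose mean was 50 normalized counts or more; named host genes were at most 5 per comparison and direction. FordPrefect_a, MER94B, Charlie1b_Mars and the subfamilies below 50 counts were named after their values were seen. Members and lists were chosen with earlier results of these data known. Scripts were tested on simulated data. Alternatives were another normalization, filter, test (DESeq2), call limit and set of libraries, replicate blocks and leaving out each library.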

Additional observations from a re-analysis of the deposited data

Results flagged for a closer look

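Pogk and Zmym5, host genes of the transposase list, were called higher in Mettl14 KO against WT26 and lower in Mettl3 KO against RBC in RNA-seq. The log2 changes were 1.42 and -0.38 for Pogk and 0.26 and -0.20 for Zmym5, so the change in Mettl14 KO minus that in Mettl3 KO was 1.795 for Pogk and 0.461 for Zmym5. Both genes were picked because their calls were opposite, so the difference was not tested on independent values. The parental lines differed as well: RBC exceeded WT26 by 1.91 for Pogk and 0.58 for Zmym5 on the log2 scale, and the normalized Pogk counts of the knockouts were near each other, at 97.1 and 107.2 for Mettl14 KO against 113.9 and 107.8 for Mettl3 KO. Each group had 2 libraries, so no library could be examined as an outlier.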

How the results depend on the processing

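Counts of subfamilies lower in the IP moved most. Mettl3 KO, with 5, had 2 under TMM, where 1.59% of all features were lower. It had 65 with no filter, 61 from its own libraries alone and 28 with DESeq2, for which the share over all features is not given here. Scaling by library size gave 116 in WT26, 60 in Mettl14 KO, 78 in RBC and 1 in Mettl3 KO. The shares of all features lower on that scale were 6.97%, 4.11%, 4.63% and 1.17% in the same order. In RBC 1 subfamily was higher by library size, where 25.7% of all features were. Scaling on repeats outside the DNA class, chosen after seeing the data, gave 7 in WT26, Mettl14 KO and RBC and 0 in Mettl3 KO, with 1 higher in WT26 and 2 in RBC, and class sums of -0.51, -0.49, -0.44 and -0.34 in the order WT26, Mettl14 KO, RBC and Mettl3 KO. Leaving out 1 library gave 1 to 170 in WT26, 0 to 169 in Mettl14 KO, 0 to 174 in RBC and 0 to 6 in Mettl3 KO; a lone library was assumed to vary like the other groups. The causes were not tested.

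Per the methods, input and IP were portions of one RNA mix, but the main test did not pair them. Replicate numbers are shared across groups, but nothing in the labels ties samples of one number together. Over 13662 features, deviations of same-numbered IP libraries correlated across lines at 0.598 to 0.806. With a replicate block pairing input and IP, 1 subfamily was lower in Mettl3 KO. A block on the number with separate terms for input and IP was added after seeing the data, and with it 91 were lower. The change between Mettl3 KO and RBC then had 110 subfamilies higher at an unadjusted p under 0.05. Its smallest adjusted p was 0.107 by edgeR, and still none was called. How many of all features were called or passed an unadjusted p of 0.05 with these blocks is not given here. The counts are therefore not read as particular to DNA transposons.

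Signs turned for some members. On the repeat scale these included Arthur1B and MER5A, which the main fit had called lower in the lines given below. By library size, FordPrefect was at 0.0395 in WT26, MamTip1 at 0.0118 in Mettl14 KO, 0.21 in RBC and 0.17 in Mettl3 KO, and MER97b at 0.0640 in Mettl3 KO. On the repeat scale, FordPrefect was at 0.83 in WT26 and 0.69 in Mettl14 KO; MamTip1 at 0.52, 0.67, 0.81 and 0.42 and MER45B at 0.55, 0.0057, 0.64 and 0.10 in the 4 lines; Arthur1B at 0.0401, 0.0052 and 0.0260 in WT26, Mettl14 KO and RBC; MER97b at 0.36, 0.17 and 0.30 in WT26, RBC and Mettl3 KO; and MER5A at 0.13 in RBC. Leaving out 1 library gave -0.13 to 0.44 for FordPrefect in RBC, -0.84 to 0.19 and -0.59 to 0.10 for MamTip1 in RBC and Mettl3 KO, -0.75 to 0.0136 for MER97b in Mettl3 KO and -0.98 to 0.0363 for its input in Mettl14 KO.

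Host genes lower in RNA-seq numbered 4 in Mettl14 KO, 2 in Mettl3 KO and 3 for RBC against WT26 with DESeq2. These numbers also moved when 1 library was left out, and were smallest without the first library of Mettl14 KO, Mettl3 KO and RBC. The share of all genes lower in these runs is not given here, so the counts are not read as particular to the list. Changes of IP over input and input levels had no subfamily called under any alternative run.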
